A study of Homo sapiens with 4 samples.

Results

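The 7 metallothionein genes MT2A, MT1X, MT1E, MT1F, MT1G, MT1H and MT1M were followed across 4 human germ cell tumour cell lines, out of 19775 genes represented on the arrays. They were taken as a named gene family, with every probe set that the array annotation lists under one of these symbols. There were 11 such probe sets, and 0 probe sets of several genes listed a member. Each gene was read from its probe set with the highest mean log2 intensity over the 4 arrays. The members were chosen by their intensities in these 4 lines, which were known when the list was drawn up, so their levels are a description and carry no test.

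Each line was measured on 1 single-colour oligonucleotide array of total RNA. TCam-2 is a seminoma line and was grown in RPMI-1640. The other 3 lines were grown in Dulbecco's medium. NT2D1 is labelled teratoma and came from a lung metastasis of a testicular tumour, GCT27 is labelled embryonal carcinoma, and GCT44 is the yolk sac tumour line. Both media held fetal bovine serum with penicillin and streptomycin, and no line was treated. The study looked for genes silenced in the non-seminoma lines. 1 line stands for each subtype, so line and subtype cannot be told apart, and no difference has a replicate error. TCam-2 also differs from the other 3 lines in its medium.

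The deposited intensities are linear, and differences were taken on the log2 scale after values below 76.4 units, the median of all values, had been set to that floor. A gene was compared when it reached the floor in at least 1 line, which held for 14926 genes and for all 7 members. A fold against a value under the floor is written "at least". The median intensity lay between 73.6 and 79.3 units on the 4 arrays, whose small number limits the precision. Marker genes followed the labels in part. Of 4 seminoma and germ cell genes compared, SOX17 and TFAP2C were higher in TCam-2 by the 4-fold rule of size given below. TFAP2C was also lower in GCT44, and KIT was lowest in TCam-2 with 1144 units and highest in GCT44 with 1771. Of 4 embryonal carcinoma genes, SOX2 and NANOG were lower in GCT44. NANOG did not set GCT27 (22428 units) apart from TCam-2 (22390), and NT2D1 had 13322 units. SOX2 did not set NT2D1, labelled teratoma (20575 units), apart from GCT27 (18309). Of 5 yolk sac genes FOXA2, APOA1 and APOA2 were higher in GCT44. Of 9 genes of differentiated tissues MAP2 was higher in NT2D1, COL2A1 and VIL1 were higher and NEFL lower in GCT44. Of 5 fibroblast genes LUM (3354 units) and COL3A1 (864) were higher and COL1A1 lower in TCam-2, COL1A2 was lower in NT2D1, and 0 were called in GCT44. Of 3 leukocyte genes with a probe set, PTPRC and CD14 lay below the floor in every line and CD3E passed it in GCT44 alone with 88.4 units. The part of such genes in the results was not tested.

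Metallothioneins are small proteins in which cysteines bind zinc, copper and cadmium through their sulphur. They buffer free zinc and copper and protect cells from toxic metals and oxidants. The genes form a cluster on the long arm of chromosome 16. They are switched on by zinc through the metal-sensing transcription factor MTF1, which binds short metal response elements in their promoters, and MT2A also responds to glucocorticoids. Promoter methylation of several MT1 genes has been described in tumours.

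The promoters of 3 members, MT2A, MT1X and MT1H, are shown with their metal response cores, whose relation to the intensities was not tested. They are the 3 of the 7 members with a window in the promoter table used here. The sequences are the 250 bases before the annotated start, 5′ to 3′ on the plus strand, from RefSeq on GRCh38.p14. They lie at chr16:56608334-56608583 for MT2A, chr16:56682220-56682469 for MT1X and chr16:56669564-56669813 for MT1H. Capitals mark each match to the core TGCACNC or TGCGCNC on either strand.
MT2A: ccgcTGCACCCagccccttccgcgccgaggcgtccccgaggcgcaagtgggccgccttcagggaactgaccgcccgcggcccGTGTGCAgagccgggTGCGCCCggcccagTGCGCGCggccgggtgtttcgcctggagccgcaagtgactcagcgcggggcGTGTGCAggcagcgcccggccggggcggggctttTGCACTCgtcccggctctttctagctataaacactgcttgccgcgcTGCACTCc
MT1X: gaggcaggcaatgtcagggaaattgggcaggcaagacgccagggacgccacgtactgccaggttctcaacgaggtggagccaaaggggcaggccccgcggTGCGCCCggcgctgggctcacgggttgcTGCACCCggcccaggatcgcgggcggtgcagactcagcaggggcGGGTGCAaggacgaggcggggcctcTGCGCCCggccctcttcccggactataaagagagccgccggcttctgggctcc
MT1H: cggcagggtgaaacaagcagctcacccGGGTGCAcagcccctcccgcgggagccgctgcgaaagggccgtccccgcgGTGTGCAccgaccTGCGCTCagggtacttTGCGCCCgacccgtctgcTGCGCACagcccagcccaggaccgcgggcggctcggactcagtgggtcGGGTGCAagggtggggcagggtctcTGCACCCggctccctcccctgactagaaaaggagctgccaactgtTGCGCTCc

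The core occurred 7 times in the MT2A window, 4 times in MT1X and 8 times in MT1H. Of 35116 promoter windows of the same length, 24.8% held at least 1 core, 0.370% held 4 or more and 0.0313% held 7 or more. A match at 53 or 54 bases before the start was present in all 3. 1 core of MT1X overlapped a GC box (GGGCGG on either strand), and no core overlapped another. The GC box occurred in MT2A (2 matches), MT1X (2) and MT1H (1), and in 42.6% of all windows. TATAAA on the plus strand lay 29 bases before the start in MT2A and 30 bases before it in MT1X, and was not among the letters of the MT1H window. 6.80% of all windows held it. The windows held 32 CpG dinucleotides in MT2A and 22 each in MT1X and MT1H, against a median of 11 over all windows. These matches are a description of the reference sequence and not of binding or methylation in these lines.

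The yolk sac tumour line GCT44 had the lowest intensity for 6 of the 7 members, and for MT1M it lay below the floor together with TCam-2. The ubiquitous form MT2A had 575 units in GCT44, against 7509 in TCam-2, 16744 in NT2D1 and 18028 in GCT27. MT1X, a widely expressed form, had 377 units in GCT44, against 5489, 13040 and 18064 in the same order. GCT44 lay far below the other lines, and its signal was 3.19% of the highest line for MT2A and 2.09% for MT1X. Against the nearest line, TCam-2, MT2A was 13.1-fold lower in GCT44 and MT1X 14.5-fold lower.

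The same order of GCT44 below TCam-2 was seen in the other bright MT1 genes. MT1E had 263 units in GCT44, against 4572 in TCam-2, 9152 in NT2D1 and 6193 in GCT27, which was 17.4-fold lower than the nearest line. MT1F had 269 units in GCT44, against 3800, 7217 and 9672, 14.1-fold lower. MT1H had 172 units in GCT44, against 5524 in TCam-2, 6029 in NT2D1 and 7084 in GCT27. Its 32.2-fold difference from the nearest line was the widest of the 7, and its 3 other lines lay closest together, within 1.28-fold. MT1G had 393 units in GCT44, against 2929, 3833 and 3629, and its 7.45-fold difference was the narrowest of the 6 genes above the floor in all lines.

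MT1M departed from this pattern. It had 2.88 units in GCT44 and 70.1 in TCam-2, against 371 in NT2D1 and 1070 in GCT27, so the seminoma line lay below the floor together with the yolk sac tumour line and the order of these lines was not measured. It was at least 4.86-fold higher in NT2D1 and at least 14.0-fold higher in GCT27 than in either of them. Of all genes, 4.05% were at least 4-fold higher in NT2D1 than in TCam-2, and 3.79% in GCT27 than in TCam-2, and MT1M was the 1 member among them in both cases. The level in GCT27 was 2.88-fold that in NT2D1.

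**Figure D1:**
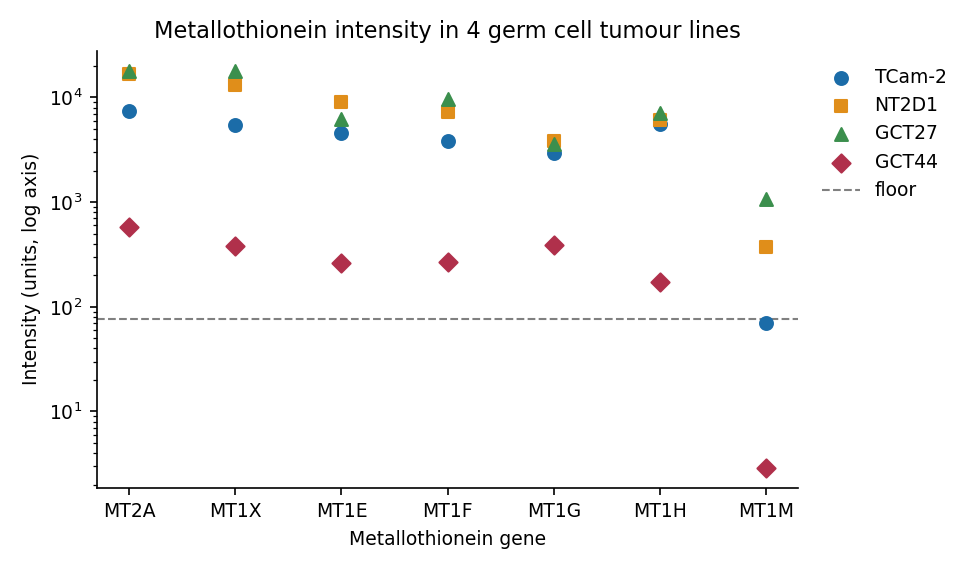
Intensity of the 7 metallothionein genes (log axis, units of the deposited values) in the 4 lines, 1 array each, with the floor of 76.4 units as a dashed line. GCT44 lies between 172 and 575 units for 6 genes, for which every other line lies at 2929 or above, and for MT1M both TCam-2 and GCT44 lie below the floor.

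A call required that a line differ from each of the other 3 by 4-fold or more in the same direction, a rule of size with no error rate. By this rule 6 of the 7 members were lower in GCT44, where 252 of 14926 genes, or 1.69%, were called. The genes had been chosen with this pattern in view, so the share says nothing beyond the description. No member was called in any other line or direction. The shares of all genes called there were 1.49% higher and 0.744% lower in TCam-2, 0.523% and 0.241% in NT2D1, 0.603% and 0.322% in GCT27, and 1.70% higher in GCT44. Set against the mean of the other lines, GCT44 had a median log2 difference of -4.58 over the 7 genes and -0.04 over all genes compared. The value for MT1M, -2.03, rests on TCam-2 and GCT44 both set to the floor, so its size was not measured. Among all genes ranked by their distance below the nearest line in GCT44, MT1H stood at place 19, MT1E at 48, MT1X at 58, MT1F at 62, MT2A at 74 and MT1G at 121.

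**Figure D2:**
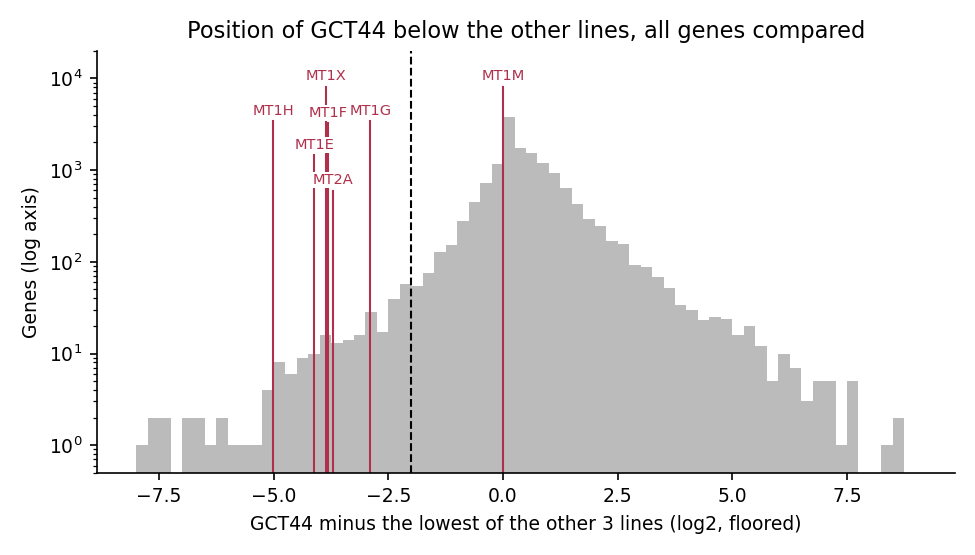
Number of genes (log axis) by the log2 difference between GCT44 and the lowest of the other 3 lines, for all 14926 genes compared, with the metallothionein genes as red lines and the 4-fold rule as a dashed line. The 6 called genes lie between -5.01 and -2.90, and MT1M lies at 0 because TCam-2 and GCT44 are both at the floor.

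Between pairs of lines, 7 of 7 members were at least 4-fold higher in NT2D1 than in GCT44, where 4.76% of all genes were. The same held for 7 of 7 in GCT27 against GCT44 (5.30% of all genes) and for 6 of 7 in TCam-2 against GCT44 (5.70%). These comparisons share the GCT44 array and are not separate readings of it. GCT44 shared its medium with NT2D1 and GCT27. Its array had an ACTB 3'/5' signal ratio of 4.21, against 2.49 to 2.97 on the others, while the GAPDH ratio was 1.04 against 0.898 to 1.09. The part of RNA quality in the metallothionein values was not tested.

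Among the remaining 3 lines the differences were smaller. GCT27 was the highest line for 5 members and NT2D1 for MT1E and MT1G, and TCam-2 was below both for each of the 7. NT2D1 was at least 2-fold above TCam-2 for 4 members, where 13.1% of all genes were, and GCT27 for 4 members, against 12.9%. The 2 lines NT2D1 and GCT27 differed by 0.677-fold to 1.39-fold (GCT27 over NT2D1) for the 6 genes other than MT1M. MT1M was the 1 member at least 4-fold higher in both NT2D1 and GCT27 than in both TCam-2 and GCT44, a split that 0.703% of all genes showed.

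With no replicates, the only spread available for a gene is that between its own probe sets. For MT1X, GCT27 over TCam-2 was 3.29 by the probe set used and 3.10 by the other, and for MT1E it was 1.35 and 1.53. For MT1F it was 2.55 and 1.63, and NT2D1 over TCam-2 was 1.90 and 1.14. The order of TCam-2, NT2D1 and GCT27 for MT1F therefore rests on differences near the disagreement between its probe sets. The difference from GCT44 was wider than this disagreement. The 2 probe sets of MT1F gave 14.1-fold and 21.5-fold against the nearest line, those of MT1X 14.5-fold and 22.3-fold, and those of MT1E 17.4-fold and 12.6-fold. The second set of MT1G lay below the floor in every line and gave no fold. Probe sets of 1 array share its RNA, so their spread holds no error between arrays or cultures.

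The probe sets also limit which member the signal belongs to. Of the 11 probe sets of the members, 9 carry the suffix _x_at, by which the array's maker marks probes that also match other transcripts. Metallothionein messages are alike in sequence, and which of them these sets match was not checked here. All 9 were above the floor in the 4 lines and at least 4-fold lower in GCT44, by 7.45-fold to 32.2-fold. Because they can share transcripts, they are not 9 independent readings and the split among MT2A, MT1X, MT1E, MT1F, MT1G and MT1H is uncertain. The other 2 sets, without that suffix, belong to MT1G and MT1M. For MT1G this second set had 4.82 units in GCT44, 17.4 in TCam-2, 7.90 in NT2D1 and 14.2 in GCT27, below the floor in all 4 lines, whereas the _x_at set of the same gene was above it in all 4. The 2 sets of MT1G thus disagree on whether the gene was above the floor at all. Without probe sets of the suffixes _s_at and _x_at only MT1M remained to be compared, and 0 members were called lower in GCT44.

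**Figure D3:**
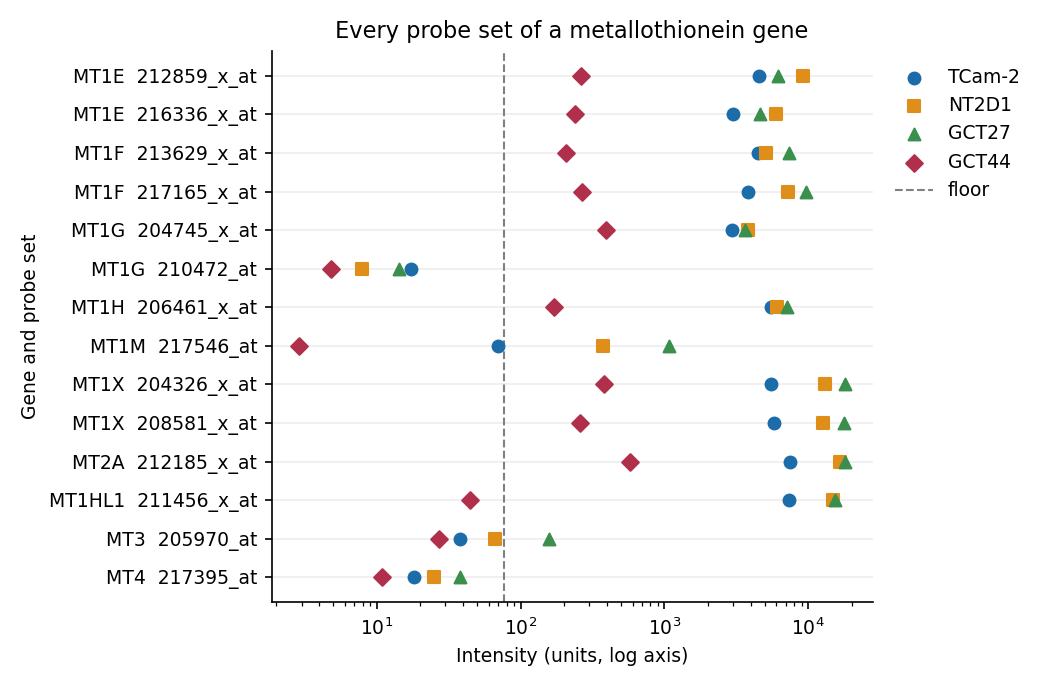
Intensity (log axis) of all 14 probe sets listed under a metallothionein gene, by line, with the floor dashed. The 9 _x_at sets of the members show the same gap between GCT44 and the other lines, and the MT1G set without that suffix lies below the floor in every line.

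3 further metallothionein genes had a probe set. MT1HL1, a retrotransposed MT1H-like gene on chromosome 1 and so outside the cluster, had 44.6 units in GCT44, against 7286 in TCam-2, 14958 in NT2D1 and 15347 in GCT27, at least 95.3-fold lower than the nearest line. Its only probe set is also an _x_at set. MT3, the growth inhibitory form known from brain, reached the floor in GCT27 alone with 157 units, and the epithelial form MT4 was below it in every line with at most 37.7. The difference between GCT44 and each other line was thus measured on the _x_at sets listed under MT2A, MT1X, MT1E, MT1F, MT1G and MT1H, whose split among these genes is uncertain. It was a lower bound on the _x_at set listed under MT1HL1, and whether that signal belongs to MT1HL1 is uncertain in the same way. The MT1G set without that suffix lay below the floor and did not measure the difference. For MT1M it was a lower bound against NT2D1 and GCT27 and was not measured against TCam-2, and it was not measured for MT4, nor for MT3 against TCam-2 and NT2D1.

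Genes on either side of the cluster were compared with the same rule. A gene can be called lower in GCT44 only where the other 3 lines reach 306 units, which held for 11 of 16 neighbours compared and for 6994 of all genes. Of the 11, 0 were lower in GCT44, against 3.60% of the 6994. This count is near the share over all genes and is no result about the neighbours. Of the 16, 0 were higher in GCT44, where 1.70% of all genes were. Their differences from the other lines' mean ran from -1.02 to 1.35 on the log2 scale with a median of -0.18, against -0.04 for all genes. BBS2, a subunit of the ciliary BBSome and the nearest neighbour compared on the MT4 side, had 919 units in GCT44, against 1014 in TCam-2, 441 in NT2D1 and 944 in GCT27. The nuclear pore gene NUP93, next to MT1X, had 2268, against 1856, 3853 and 4078. GNAO1, a G protein subunit, lay near or below the floor in all lines, with at most 102 units, and could not show a difference of that size. The members' differences ran from -5.17 to -2.03, and the end at -2.03 is MT1M, whose size was not measured. MT3, inside the cluster, had -0.35 and reached the floor in GCT27 alone. The members were chosen with their values known, so their distance from the neighbours is a description. BBS2 and NUP93 were picked for their place and not for their values.

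**Figure D4:**
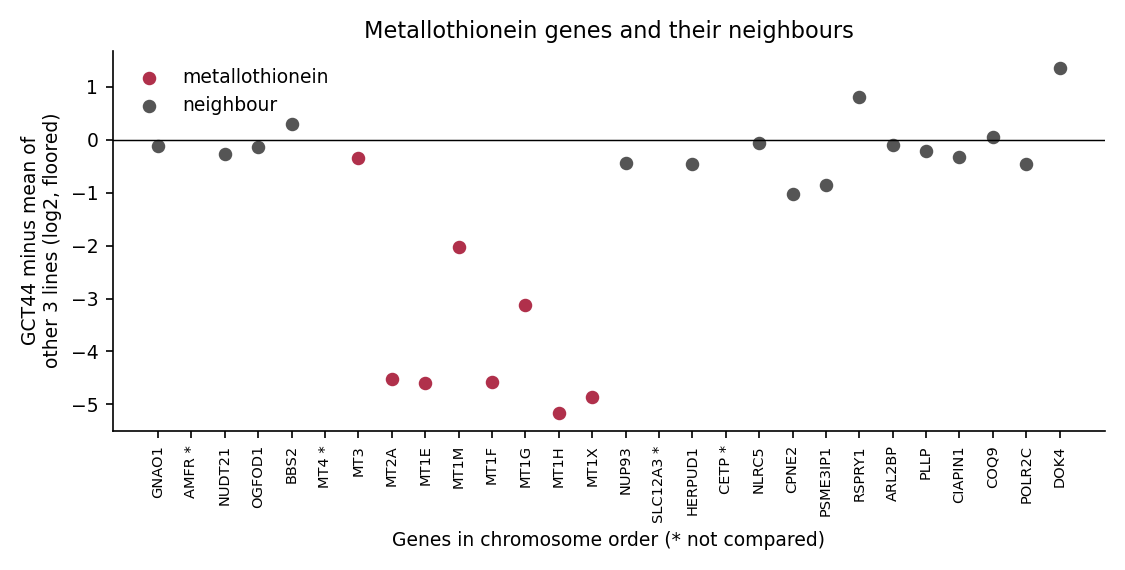
Difference between GCT44 and the mean of the other 3 lines (log2, floored) for metallothionein genes (red) and neighbouring genes (grey) in chromosome order, with genes that were not compared marked by an asterisk. The 7 members lie between -5.17 and -2.03, MT3 at -0.35 and the neighbours between -1.02 and 1.35.

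Zinc transport genes were set beside the metallothioneins. SLC30A1, the zinc exporter of the plasma membrane and itself a known target of MTF1, had 7717 units in GCT44, against 3419 in TCam-2, 3894 in NT2D1 and 1900 in GCT27. It was highest in the line where the metallothioneins were lowest, 1.98-fold above the next line and short of the 4-fold rule. Its second probe set above the floor gave the same highest line, at 1.46-fold, and its remaining set lay below the floor in every line. Of 8 exporters and vesicular carriers of the SLC30 family compared, 5 were highest in GCT44 and 0 lowest, where 26.9% of all genes were highest and 21.9% lowest. 0 of the 8 were called, of which 5 were bright enough for a lower call in GCT44, and their median difference there was 0.73. Of 12 importers of the SLC39 family, 0 were called, of which 8 were bright enough for a lower call in GCT44. 5 of the 12 were highest and 5 lowest in GCT44, and the median was 0.05. SLC39A1, the first of them, had 887, 1149, 1018 and 1091 units in TCam-2, NT2D1, GCT27 and GCT44.

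Transcription factors that act on these promoters were also compared. By the probe set used, MTF1 had 569 units in GCT44, against 407 in TCam-2, 568 in NT2D1 and 461 in GCT27. Another MTF1 probe set had 313 units in GCT44, against 321, 380 and 286 in the same order. The remaining set had 162 units in GCT44, against 152 in TCam-2 and 117 in NT2D1, and lay below the floor in GCT27. The part of MTF1 in the metallothionein values was not tested. USF1 lay below the floor in GCT27 (21.2 units) and in GCT44 (22.6), with 119 in TCam-2 and 174 in NT2D1. Of 10 such factors 0 were called in any line, and 8 were bright enough for a lower call in GCT44. 4 of the 10 were lowest in GCT44 (21.9% of all genes) and 3 highest (26.9%), with a median of -0.38. The glucocorticoid receptor gene NR3C1 had 643 units in GCT44, against 2189, 931 and 1229 in the same order, and STAT3 had 474, against 623, 1267 and 3750, both lowest in GCT44. Of 7 glucocorticoid-responsive genes 0 were called in GCT44, of which 4 were bright enough for a lower call. 4 of the 7 were lowest there, against 21.9% of all genes, and 2 were highest, against 26.9%. The median was -1.12. SGK1, a kinase induced by glucocorticoids, had 158 units in GCT44, against 20956, 385 and 8742, and ERRFI1, an inhibitor of EGF receptor signalling, had 1179, against 9749, 3181 and 8879. TSC22D3 had 171 units in GCT44, against 312 in TCam-2, 1314 in NT2D1 and 580 in GCT27. DUSP1 had 761, against 1322, 1104 and 927. FKBP5, a chaperone of the receptor and a standard target, had 2189 units in GCT44, against 1771 in NT2D1 and 2027 in GCT27. It was 11.3-fold lower in TCam-2, at 157. The part of glucocorticoid signalling in the metallothionein values was not tested. NR3C1, STAT3, USF1, SGK1, ERRFI1, TSC22D3 and DUSP1 were picked after their values were seen.

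Other lists showed no call in GCT44. Of 12 copper handling genes 7 were highest there, against 26.9% of all genes, with a median of 0.74, and the metalloreductase STEAP2 was at least 5.04-fold lower in TCam-2. Of 10 targets of the oxidant sensor NRF2, 0 were called in GCT44 and 3 were lowest there, against 21.9% of all genes, with a median of -0.24, and malic enzyme ME1 was at least 7.15-fold lower in NT2D1. The 5 heat shock genes had a median of 0.03, and HSPA6, an inducible member, was above the floor in TCam-2 alone with 120 units. Among 9 genes that write, erase or read DNA methylation the median was -0.19. The methyltransferase cofactor DNMT3L was 11.0-fold higher in TCam-2 than in the next line and the demethylase TET2 at least 4.45-fold lower in GCT27, so neither call fell in GCT44. These list medians are read against -0.04 for all genes and have no test. For higher calls the counts of 0 are read against 1.70% of all genes. For lower calls they are read against 3.60% of the 6994 genes bright enough. Bright enough were 8 of 12 copper handling genes, 9 of 10 NRF2 targets, 4 of 5 heat shock genes and 7 of 9 DNA methylation genes. Lists of this size cannot be told apart from these shares.

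**Figure D5:**
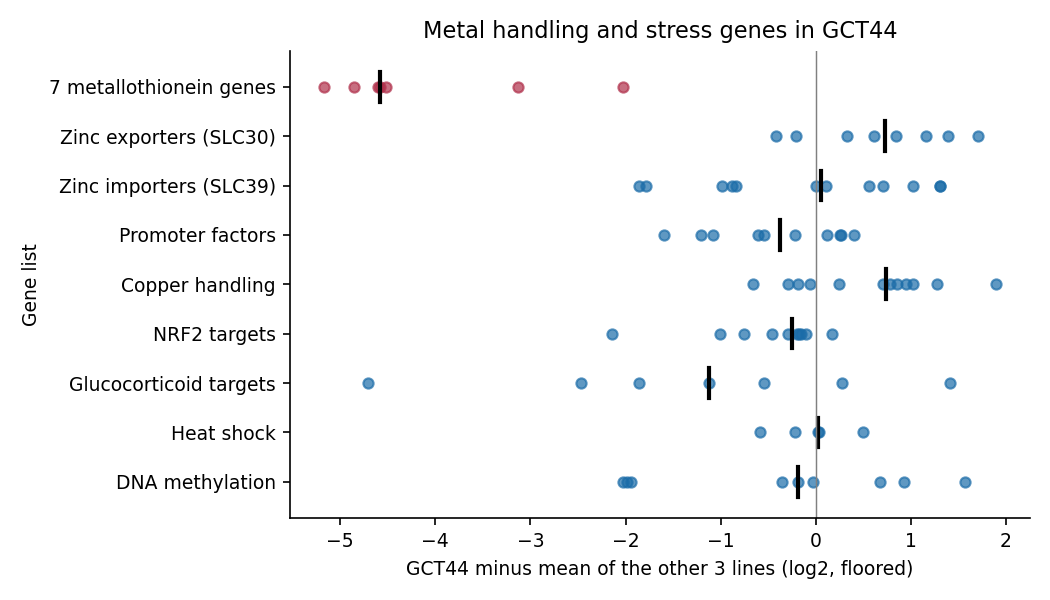
Difference between GCT44 and the mean of the other 3 lines (log2, floored) for the 7 members and the genes compared of 8 gene lists. The median of each is a black bar, and MT3 and MT1HL1 are not shown. The median of the 7 members is -4.58, and the list medians lie between -1.12 (glucocorticoid targets) and 0.74 (copper handling).

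The genes most like the metallothioneins over the 4 lines were sought by the Euclidean distance between a gene's floored log2 values, centred on their mean, and the average of the members. The 8 nearest genes outside the family, with 4 lines behind each distance, were SPATA13 (distance 0.25), CXCL12 (0.33), AIG1 (0.46), UST (0.48), OSBPL10 (0.48), LOC105376805 (0.53), EMSLR (0.58) and WWTR1 (0.61). Among the members the distance ran from 0.37 for MT2A to 2.53 for MT1M. SPATA13, a guanine nucleotide exchange factor, had 7.77 units in GCT44, against 676 in TCam-2, 1449 in NT2D1 and 2118 in GCT27. The chemokine CXCL12 had 60.2, against 817, 1398 and 1515. WWTR1, which encodes the Hippo pathway coactivator TAZ, had 5.57, against 533, 1223 and 2291. In 7 of the 8 genes GCT44 lay below the floor, and EMSLR had 80.6 units there, so the depth of the difference is a lower bound for the 7. A second probe set of CXCL12 was bright enough to show a 4-fold difference, and gave 3.45-fold. Of 12 promoter windows found for 7 of these genes, 2 held a metal response core, 1 in CXCL12 and 1 in SPATA13, against 24.8% of all windows.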

How the data were processed

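Total RNA of 4 cell lines was hybridized by the authors to Affymetrix arrays of 54675 probe sets, 1 array per line. The values deposited by the authors are linear probe set intensity values, with a mean of 500.1 on every array after trimming 2% at each end. The submitters' processing notes name RMA, which usually gives log2 values, and the linear values with a common trimmed mean differ from that. Which method gave the deposited values is not known here. The scale was taken from the values and log2 computed here. The genome build is not given in the sources used here.

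The array annotation gave 41097 probe sets with 1 gene symbol, 1801 with several and 11777 not listed. Symbols were updated by gene identifier to RefSeq (GRCh38.p14), which also gave gene order. The tools were Python 3.11.15, numpy 2.4.6 and pandas 2.3.3. No significance test was run. The code of the size rule was checked on simulated data, which gives no error rate for these lines. Named were all metallothionein genes, the 8 nearest in pattern, and of each list the genes called in any line, or the first compared. BBS2, NUP93, NR3C1, STAT3, USF1, SGK1, ERRFI1, TSC22D3, DUSP1, KIT, PTPRC, CD14 and CD3E were named outside this rule. Members, lists and rules were chosen with earlier results of these data known. Alternatives covered the probe set, floor, scaling, threshold, reference and each line left out.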

Additional observations from a re-analysis of the deposited data

How the results depend on the processing

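The count of 6 metallothionein genes lower in GCT44 was 5 to 7 under every alternative but 1 among those that kept GCT44. Leaving out GCT44 gave no such count. Without _s_at and _x_at probe sets the count was 0, since only MT1M was then compared. It was 7 without a floor, with the other lines' mean as reference, and without TCam-2, where MT1M was added with a difference of -4.60, -2.03 and -2.28. The share of all genes called lower in GCT44 was then 4.78%, 4.09% and 2.88%, and 4.45% at a log2 threshold of 1, against 1.69%. It was 6 without NT2D1 and without GCT27. With the dimmest probe set of each gene it was 5 of 6 compared, since MT1G then lay below the floor. It was 6 with the median over probe sets, arrays centred on the median, quantile normalization, a floor of 252 units, a log2 threshold of 1, and scaling to the hybridization controls. That scaling, the dimmest probe set, choice by linear mean and leaving out each line were chosen after seeing the data. The difference between GCT44 and its reference stayed past the rule for MT2A (-4.86 to -3.71), MT1X (-5.11 to -3.86), MT1E (-4.60 to -3.65), MT1F (-4.75 to -3.82), MT1G (-3.21 to -2.89) and MT1H (-5.31 to -4.45) wherever they were compared. The reference was the nearest line, or the other lines' mean in that alternative. With the floor at 252 units MT1M was no longer 4-fold higher in NT2D1 than in TCam-2 and GCT44, and still was in GCT27. With the mean as reference 4 members were higher in GCT27 and 1 in NT2D1, and 1 was lower in TCam-2. The mean used for these lines includes the low GCT44 value. Calls outside GCT44 were also 1 higher in GCT27 at a log2 threshold of 1 and without NT2D1, 1 higher in NT2D1 without GCT27, and 1 lower in TCam-2 without GCT44. The shares of all genes called outside GCT44 under these settings are not given here, so these counts are no result about the members. No paired analysis was possible because each line has 1 array. A level below 76.4 units has no order here, which limits MT1M, MT3 and MT4.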
